A study of Rattus norvegicus with 18 samples.

Results

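Complement components and regulators were followed in rat motor tissue through 6 genes: C1qa and C1qb, 2 of the chains of C1q, the recognition protein of the classical pathway; C1s, the protease of the same complex; C3, the central protein on which the complement pathways converge; Serping1, the C1 inhibitor; and Cd55, the decay-accelerating factor of the cell surface. They were found by platform gene symbol and gave 7 probe sets, 2 of them for Cd55, among 15866 probe sets without the manufacturer's controls. The genes were chosen by their signals on these arrays with earlier results known, most likely by their differences between ages, and it is not recorded whether their tissue levels entered the choice. Their differences between ages and between tissues are therefore given as a description with no p-value, and calls of the fit across all probe sets are only counted beside the share called among all. Tests are given for the other genes of the pathway.

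The study measured total RNA of the oculomotor nucleus, whose motor neurons move the eye, and of the spinal cord on Affymetrix RA230 arrays, 1 array per sample. At each of the ages 6, 18 and 30 months 3 arrays were run per tissue, 18 in all, and the labels of some arrays name the rats as F344BN. No treatment or altered allele is named for any group, and the labels leave out sex. RNA of 4 animals was pooled for each array, so the spread between arrays is a spread between pools, and the labels do not say whether pools of both tissues came from the same rats.

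Values are signals on the scanner's linear scale, after each array was brought to the same trimmed mean, and each probe set has its own scale, so that levels are compared between arrays and not between genes. Median intensity lay between 252 and 275 per array, and the number of arrays limits the precision. Signals at or under 66.4, the 20th percentile of all values, were treated as the floor. The tissue labels were checked with motor neuron markers: Chat, which synthesises acetylcholine, gave 96.8 to 191 on the oculomotor arrays and 316 to 438 on the cord arrays. Phox2a, a transcription factor that oculomotor neurons need to form, was dim and overlapped between the tissues, with 84.2 to 171 on the oculomotor arrays and 90.4 to 172 on the cord arrays. Neither marker was higher in the oculomotor nucleus than in the cord. Otx2, a transcription factor of midbrain and choroid plexus, was looked at after its values were seen: 1 of its 2 probe sets had 64.6 to 121 on the oculomotor arrays and at most 5.8 on the cord arrays, and the other overlapped between the tissues. In homogenised tissue, fewer cells of a type and less RNA per cell cannot be told apart.

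Complement is a cascade of plasma and tissue proteins that tags surfaces for removal. C1q binds a target, its proteases C1r and C1s are activated, and C1s cleaves the next components. C3 is then split and its fragments are deposited, and phagocytes recognise them through receptors. In the brain and spinal cord, microglia are known as the main makers of C1q, and C1q and C3 are known from rodents to mark synapses for engulfment by microglia. Serping1 inactivates C1r and C1s, and Cd55 dissociates the enzyme complexes that split C3.

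C1qa and C1qb, the A and B chains of C1q, lie side by side with C1qc, the gene of the third chain, on chromosome 5 of the rat assembly GRCr8, with C1qc between them. Because these 2 genes deviated together from array to array, as given below, the sequences around their starts are shown, taken from RefSeq on GRCr8, 250 bases before and 50 bases after each start, minus strand, read 5′ to 3′. RefSeq start regions were matched for 4 of the 6 genes: C1qa, C1qb, C3 and Cd55. Capitals mark matches to GAGGAA, the core that the myeloid factor PU.1 binds, or to TTCNNNGAA, a STAT motif. Both were searched on both strands, together with the pattern TTGCNNNAA. No other form of a motif was searched, so sites of other forms can be missed.
C1qa, chr5:154419884-154420183: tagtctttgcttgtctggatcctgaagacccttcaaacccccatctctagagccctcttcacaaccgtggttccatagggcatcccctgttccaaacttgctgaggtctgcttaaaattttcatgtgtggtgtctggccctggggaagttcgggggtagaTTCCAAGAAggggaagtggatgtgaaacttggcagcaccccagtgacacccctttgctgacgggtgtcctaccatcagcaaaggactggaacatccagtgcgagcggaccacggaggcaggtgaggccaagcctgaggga
C1qb, chr5:154407778-154408077: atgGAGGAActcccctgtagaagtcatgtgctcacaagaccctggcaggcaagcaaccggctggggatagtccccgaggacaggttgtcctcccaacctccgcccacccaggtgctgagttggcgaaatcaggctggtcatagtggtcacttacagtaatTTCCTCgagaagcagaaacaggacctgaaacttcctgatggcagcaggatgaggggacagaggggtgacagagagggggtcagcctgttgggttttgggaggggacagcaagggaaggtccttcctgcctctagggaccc
The C1qb window held GAGGAA on both strands, with its first base at -247 and at -90 from the start, and the C1qa window held TTCNNNGAA with its first base at -90. None of the 3 motifs was found in the windows of C3 and Cd55. Of 33469 rat start regions of this length, 27.6% held GAGGAA, 8.87% held TTCNNNGAA and 9.6% held TTGCNNNAA, and none of these motifs overlap in the windows shown.

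C1qa in the oculomotor nucleus had signals of 912, 869 and 956 at the youngest age, 1018, 1180 and 1199 at 18 months, then 1600, 1276 and 1647 at 30 months. The ages did not overlap, and every array of an older group lay above every array of the younger one, as did 7.29% of all probe sets for 18 against 6 months, 6.68% for 30 against 6 months and 4.51% for 30 against 18 months. In the spinal cord C1qa had 1431, 1686 and 1610 at 6 months, 2575, 3290 and 2329 by 18 months, then 1959, 1884 and 3038 by 30 months. Both older cord groups lay above all 6-month arrays (6.95% and 6.68% of all probe sets did so at 18 and 30 months), and overlapped with each other because 1 of the 30-month arrays, replicate 3, was as high as the 18-month arrays. The differences of mean log2 signal from 6 months were 0.31 ± 0.16 at 18 months and 0.72 ± 0.16 at 30 months in the oculomotor nucleus (SE of the fit, n = 3 each), and 0.78 ± 0.16 and 0.51 ± 0.16 in the cord.

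C1qb followed C1qa in the cord and less clearly in the oculomotor nucleus. The shares of all probe sets given for C1qa are the background for this and the next genes in the same comparisons. Its oculomotor signals were 342, 399 and 398 at 6 months, 375, 552 and 495 by 18 months, then 522, 365 and 629 by 30 months. The oculomotor ages overlapped, since 1 array of each older group lay within the 6-month range. In the cord its signals were 709, 675 and 591 at 6 months, 1035, 1517 and 1001 by 18 months, then 841, 726 and 1322 by 30 months, and both older groups lay above all 6-month arrays. The cord differences from 6 months were 0.83 ± 0.22 at 18 months and 0.51 ± 0.22 at 30 months on the log2 scale, 1.77-fold and 1.42-fold, and the oculomotor differences were 0.31 ± 0.22 and 0.38 ± 0.22.

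C1s, which cleaves C4 and C2 once C1q has bound, was dim in the oculomotor nucleus. Its oculomotor signals were 98.6, 86.3 and 113 at 6 months, 123, 128 and 159 by 18 months, then 170, 115 and 109 by 30 months. The 18-month arrays lay above the 6-month arrays, and the 30-month arrays overlapped with both. In the cord C1s had 242, 331 and 385 at 6 months, 724, 590 and 407 by 18 months, then 464, 480 and 595 by 30 months, and again both older groups lay above 6 months. Its cord differences from 6 months were 0.83 ± 0.22 at 18 months and 0.70 ± 0.22 at 30 months.

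C3 had the smallest spread between arrays of the 5 genes that passed the filter on dim probe sets, with a residual SD of 0.17 on the log2 scale, against 0.22 for C1qa, 0.31 for C1qb, 0.30 for C1s and 0.33 for Serping1. In the oculomotor nucleus its signals were 486, 556 and 596 at 6 months, 857, 826 and 883 by 18 months, then 1199, 1099 and 1176 by 30 months. The 3 ages formed separate steps with no overlap. The steps were 0.65 ± 0.13 on the log2 scale between 18 and 6 months and 0.44 ± 0.13 between 30 and 18 months. The share of all probe sets with all 3 ages separated was not counted. In the cord C3 had 1541, 1573 and 1447 at 6 months, 2912, 3498 and 2359 by 18 months, then 2335, 2339 and 3188 by 30 months. Both older groups lay above the 6-month arrays and overlapped with each other. The cord difference from 6 months was 0.93 ± 0.13 at 18 months and 0.77 ± 0.13 at 30 months, and that between 30 and 18 months was -0.16 ± 0.13. All 5 genes shared this order in the cord: their differences between 30 and 18 months were negative, from -0.35 for Serping1 to -0.13 for C1s, and for each of them the ranges of these groups overlapped. Without cord 18 months replicate 1 the difference of C1s was 0.06.

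**Figure D1:**
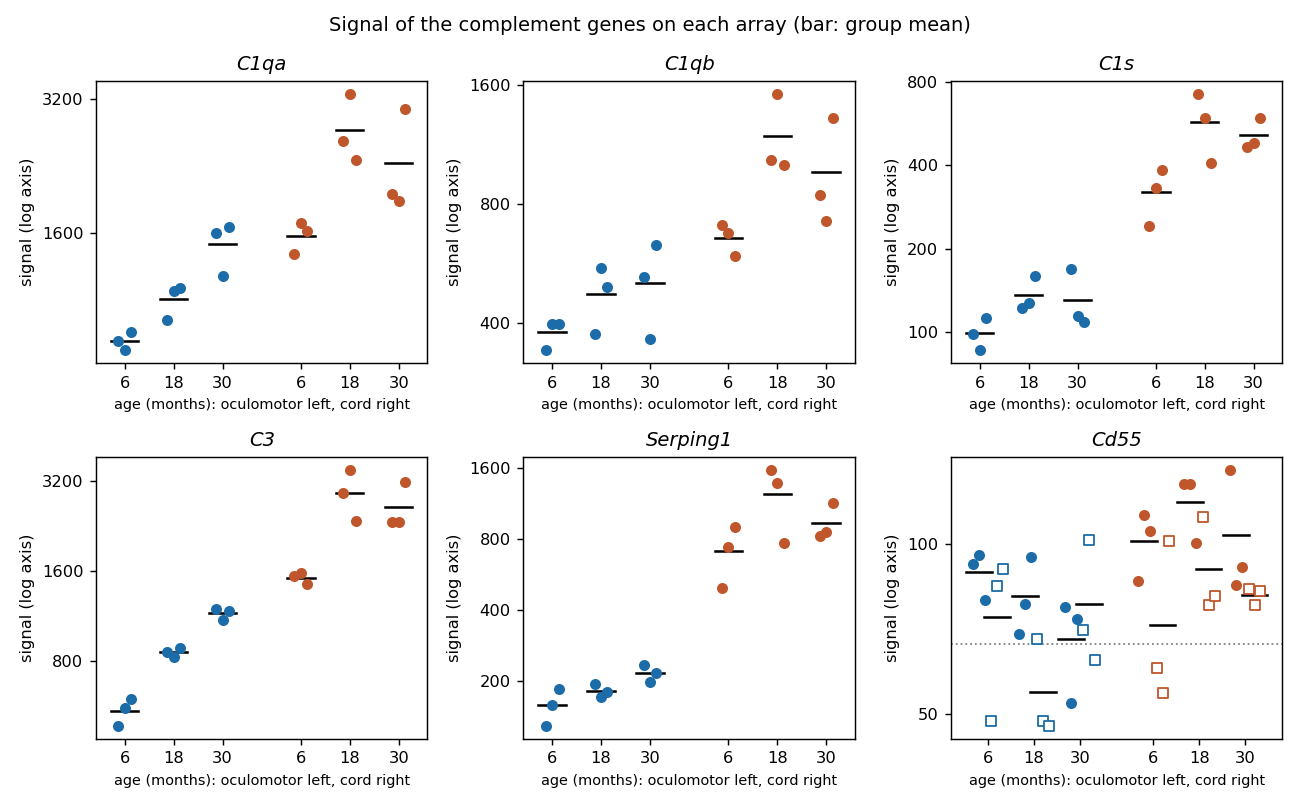
Signal of each complement gene on each of the 18 arrays, on a log axis, by age in months for the oculomotor nucleus (blue, left) and the spinal cord (orange, right); points are arrays, bars are group means, and open squares show the second Cd55 probe set, with the floor of 66.4 as a dotted line. C3 forms 3 separate steps in the oculomotor nucleus, while in the cord the 18-month and 30-month arrays overlap above the 6-month arrays.

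Serping1, the inhibitor of C1r and C1s, had oculomotor signals of 129, 159 and 186 at 6 months, 194, 170 and 179 by 18 months, then 234, 198 and 217 by 30 months. The 30-month arrays lay above both younger groups, which overlapped with each other. In the cord its signals were 497, 736 and 894 at 6 months, 1570, 1383 and 764 by 18 months, then 823, 856 and 1131 by 30 months. The cord ages overlapped, and the 18-month group spanned the range from the 6-month arrays to the highest values of all. Its log2 differences from 6 months at 18 and 30 months were 0.21 ± 0.23 and 0.47 ± 0.23 in oculomotor tissue and 0.78 ± 0.23 and 0.43 ± 0.23 in the cord.

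Cd55 was near the floor in both tissues, and neither of its probe sets passed the filter. For the first, oculomotor signals were 79.6 to 95.7 in the 6-month group, 69.3 to 94.9 by 18 months and 52.3 to 77.4 by 30 months. Its cord signals for the same ages were 86.0 to 113, 100 to 128 and 84.6 to 136. The second lay at or under the floor on 6 of 18 arrays and did not exceed 112 on any. In a fit with no filter the first probe set differed by -0.30 ± 0.18 between 30 and 6 months in the oculomotor nucleus, with no overlap but close to the floor, as were 7.21% of the probe sets that passed the filter. The other differences of both probe sets from 6 months lay between -0.25 and 0.23.

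**Figure D2:**
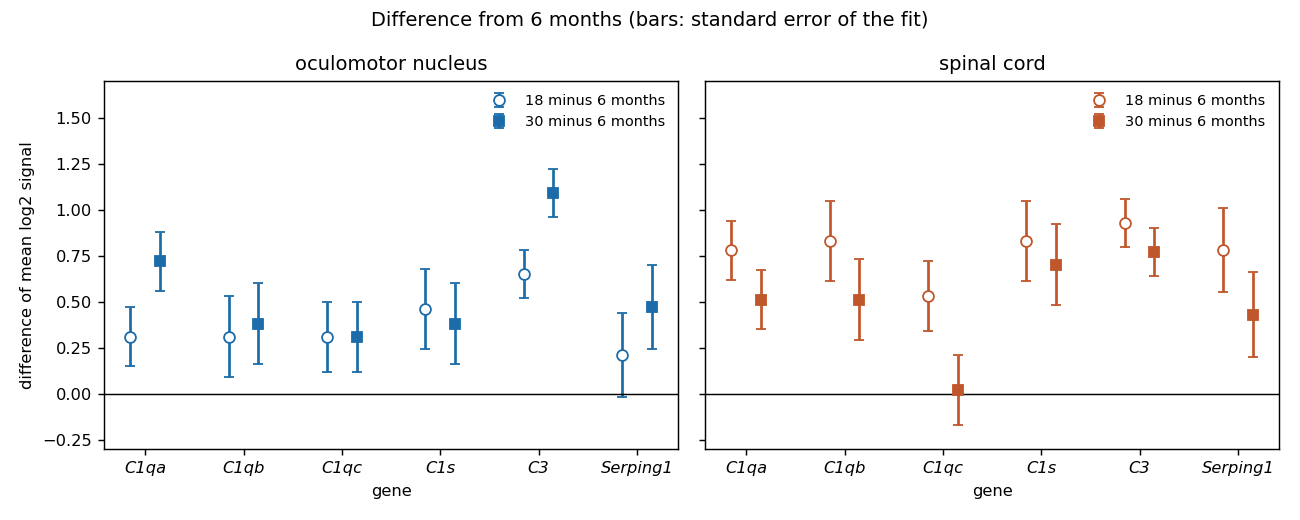
Difference of mean log2 signal from 6 months for 6 complement genes in the oculomotor nucleus (left) and the spinal cord (right); open circles are 18 minus 6 months, filled squares 30 minus 6 months, and bars the standard error of the fit (n = 3 arrays per group). In the oculomotor nucleus C3, C1qa, Serping1 and, by little, C1qb stand higher at 30 months than at 18 months, and C1s stands lower. In the cord every square lies below its circle, with C1qc at 0.02 at 30 months.

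A linear model over all arrays and all 9482 probe sets that passed the filter gave the background for these differences, with a probe set called at a Benjamini-Hochberg adjusted p under 0.05 (limma). In the oculomotor nucleus at 18 against 6 months it called none of the genes, 0% of all probe sets being called higher, with 321 probe sets and 1 of the 5 genes, C3, at an unadjusted p under 0.05. At 30 against 6 months it called C3, where 0.179% of all probe sets were called higher. In the cord at 18 against 6 months it called C3 and C1qa (0.538% of all), and at 30 against 6 months C3 (0.169% of all). Because the genes were chosen with these comparisons in view, the counts are not read as a result. The call of C1qa in the cord at 18 months was lost without any 1 of 5 arrays, all 3 of the 6-month cord and replicates 1 and 2 of the 18-month cord, and that of C3 in the cord at 30 months was lost without cord 30 months replicate 3, where its difference was 0.62. Both calls were also lost with no filter on dim probe sets and with the cord fitted alone.

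The study's own rule, as the series text gives it, asked for a consistent direction in all pair-wise comparisons with 6 months and a mean change above 1.7. Counted here as no overlap between the arrays and a ratio of mean signals over 1.7, it was met by C3 in the oculomotor nucleus at 30 months (2.12), by C3 (1.92), C1qa (1.73), C1qb (1.80) and C1s (1.80) in the cord at 18 months, and by C3 in the cord at 30 months (1.72). By the same rule 0.2%, 0.506% and 0.274% of all probe sets were higher in these comparisons, and 0.0316% were higher in the oculomotor nucleus at 18 months, where none of the genes met it and C3 had a ratio of 1.57. Serping1 missed it in the cord at 18 months through overlap, with a ratio of 1.75. C1s in the cord at 30 months had a ratio of 1.60 with no overlap. The presence calls that the study also used are not analysed here.

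Most microglia and macrophage markers that passed the filter were higher at 18 and 30 months than at 6 months. Of 22 listed markers 18 had a probe set and none of these was at or under the floor on all arrays. Their summed signal was 9461 to 10300 in 6-month oculomotor tissue, 12270 to 13770 by 18 months and 13450 to 16010 by 30 months. In the cord it was 13620 to 14960, 21230 to 25640 and 18410 to 28930 for the same ages. The sums of both older groups lay above those of 6 months in each tissue, and cord 30 months replicate 3 had the highest sum of all arrays. Bright genes weigh most in the sum: Ctss alone gave 3609 of 9461 on oculomotor 6 months replicate 1. On cord 30 months replicate 3 it gave 9544 of 28930. The next values are in the order oculomotor 18 and 30 months, then cord 18 and 30 months. Of the 16 markers that passed the filter, 14, 16, 16 and 15 differed upward and 0, 5, 8 and 5 were called higher. Their median log2 differences were 0.36, 0.51, 0.72 and 0.53, beside a median of 0 over all probe sets in each comparison. Of all probe sets, 0%, 0.179%, 0.538% and 0.169% were called higher in these comparisons. The median log2 differences of the 5 complement genes were 0.31, 0.47, 0.83 and 0.51. The part of these markers in the differences of the complement genes was not tested.

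Within a tissue, other values differed between ages or between single arrays. In the oculomotor nucleus the 3′ to 5′ ratio of the hexokinase control, a sign of RNA quality, was 1.57 to 1.64 in the 6-month group, 1.75 to 1.89 by 18 months and 1.76 to 1.91 by 30 months. The beta-actin ratio overlapped between these ages (1.25 to 1.36, 1.22 to 1.49 and 1.31 to 1.54). So did the GAPDH ratio (0.991 to 1.02, 1.01 to 1.02 and 1 to 1.09). The summed signal of the meninges and matrix markers, 11 of 11 measured, was 3324 to 3641, 2579 to 2725 and 1921 to 2360 at these ages, downward where the complement genes were higher. In the cord the skeletal muscle markers, 14 of 15 measured, summed to 5532 to 17320 in the 6-month group, 4660 to 9244 by 18 months and 4874 to 5800 by 30 months. Their part in the results was not tested. When the 3 cord arrays with the highest muscle sums were left out, which leaves 1 array at 6 months that is assumed to vary like the other groups, C3 differed from 6 months by 0.86 and 0.84 at 18 and 30 months and C1qb by 0.78 and 0.66. C1s differed by 0.50 and 0.40, and Serping1 by 0.29 and 0.05. With these arrays left out, limma called none of the 5 genes in the cord at either age, with 3 of them at each age at an unadjusted p under 0.05. The choroid plexus markers, 7 of 9 measured and Kl at the floor on all arrays, summed to 4817 and 2718 on replicate 1 of the 6-month and 18-month oculomotor groups and to 1013 to 1628 on the other oculomotor arrays. Without these 2 arrays the oculomotor differences of C3 were 0.57 at 18 months and 1.01 at 30 months, and those of Serping1 0.03 and 0.33.

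**Figure D3:**
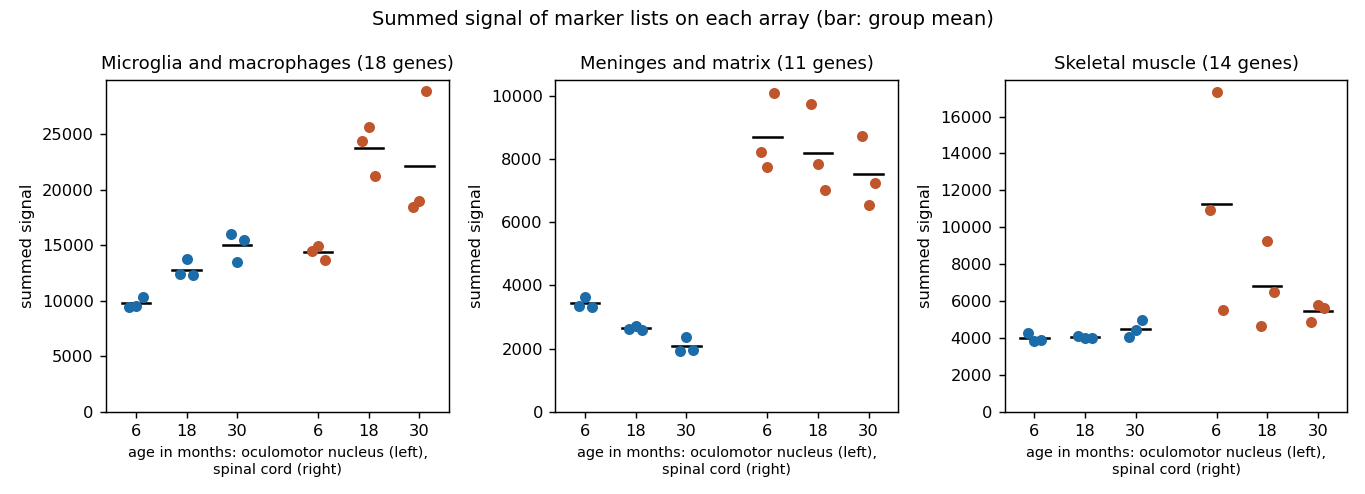
Summed signal of the marker lists of microglia and macrophages, meninges and matrix, and skeletal muscle on each array, from 0, by age in months for the oculomotor nucleus (blue, left) and the spinal cord (orange, right); bars are group means. The microglia sum at 6 months is 9461 to 10300 in the oculomotor nucleus and 13620 to 14960 in the cord and is higher at 18 and 30 months in both, while the muscle sum varies among the 6-month cord arrays.

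A set of 4 arrays deviated from their groups together across all probe sets: replicate 3 of the oculomotor 30-month group, replicate 1 of the 6-month cord and replicate 3 of both older cord groups. They scored -16.6 to -12.1 on the first component of the group-centred values, which held 27.1% of the variance, and no other array scored under -1.70. On the other side, replicate 2 of the oculomotor 30-month group scored 14.2. Without it C1qb differed by 0.60 between 30 and 6 months in the oculomotor nucleus, and C1qa by 0.83. C3, C1qa, C1qb, C1s and Serping1 each had their highest 30-month cord signal on replicate 3, and each had its lowest 18-month cord signal on replicate 3. With these 4 arrays as a block, limma called C3, C1qa, C1qb and C1s in the cord at 18 months, where that fit called 0.949% of all probe sets higher, against 0.538% without the block. Without cord 30 months replicate 3, the cord differences between 30 and 6 months were 0.29 for C1qa, 0.25 for C1qb, 0.59 for C1s and 0.28 for Serping1.

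The oculomotor nucleus and the spinal cord were compared at 6 months, whose arrays are also the baseline of the age differences. C3, C1qa, C1qb, C1s and Serping1 were all lower in the oculomotor nucleus than in the cord, and no oculomotor array reached a cord array for any of them, as for 20.4% of all probe sets. Serping1 averaged 158 ± 28.2 in the oculomotor nucleus and 709 ± 200 in the cord (SD, n = 3 each), a log2 difference of -2.14 ± 0.23 (SE; 95% interval -2.63 to -1.66). C1s averaged 99.2 ± 13.3 and 320 ± 72.0 in these tissues (log2 difference -1.67 ± 0.22, -2.13 to -1.21). C3 averaged 546 ± 55.6 and 1521 ± 65.5 (-1.48 ± 0.13, -1.76 to -1.21). For the C1q chains the tissue difference was -0.79 ± 0.16 for C1qa (-1.12 to -0.45) and -0.79 ± 0.22 for C1qb (-1.25 to -0.33).

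The fit called all 5 of these genes lower, where it called 26.1% of all probe sets in either direction and 13.4% lower in the oculomotor nucleus, and nothing is read from the count. C1s and Serping1 passed the filter of 7.46 through their cord levels, since their mean log2 signals on the 6-month oculomotor arrays were 6.62 and 7.29. With no filter, 5 of the 7 probe sets were called lower in the oculomotor nucleus, against 8.83% of all 15866, and those of Cd55 differed by -0.18 and 0.06. Without the 3 cord arrays rich in muscle transcripts the call of C1qb was lost (-0.64) and the other 4 were called.

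Marker lists differed between the tissues at 6 months too. With no filter, limma called 10 of the 11 meninges and matrix markers lower in the oculomotor nucleus, with a median of -1.32 over the 11. Their list summed to 3324 to 3641 in the oculomotor nucleus and 7760 to 10110 in the cord. Of the 18 microglia and macrophage markers with a probe set 12 were called lower with no filter, with a median of -0.62. In the same fit 4 of 6 motor neuron markers were called lower (median -1.16). So were 3 of 14 skeletal muscle markers (-1.82), 2 of 4 blood markers (-0.55) and 2 of 6 endothelial markers (-0.18). Of 10 astrocyte markers 3 were called lower and 1 higher (-0.37), and of 7 choroid plexus markers 0 were called (0.12). That fit called 8.83% of all 15866 probe sets lower. The hexokinase ratio at 6 months was 1.57 to 1.64 in the oculomotor nucleus and 1.93 to 2.12 in the cord. The ratios of beta-actin (1.25 to 1.36 and 0.98 to 1.26) and GAPDH (0.991 to 1.02 and 0.988 to 1.3) overlapped. The part of these markers and ratios in the tissue differences was not tested.

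**Figure D4:**
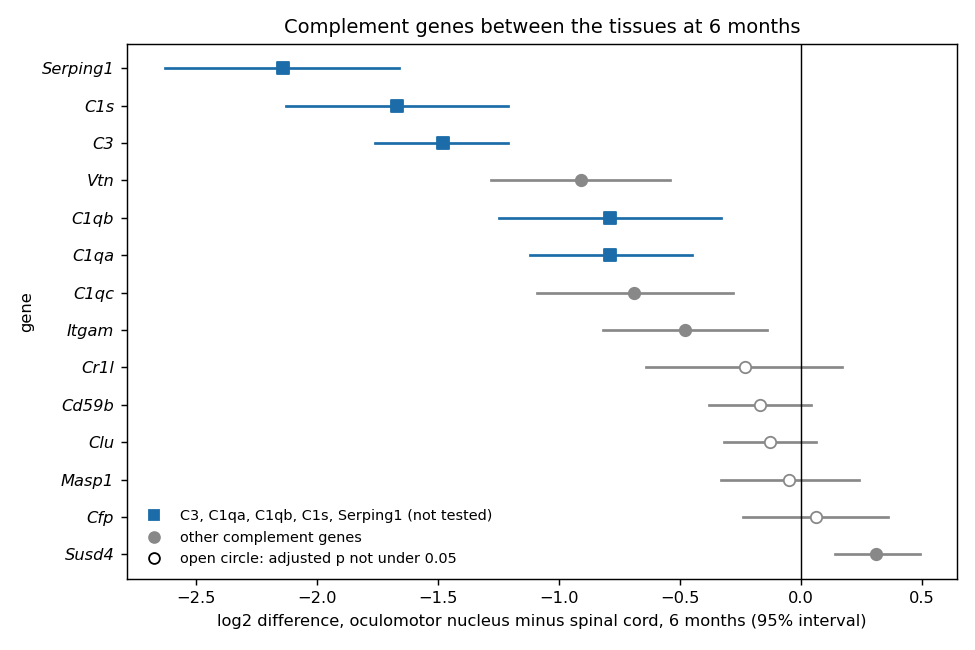
Log2 difference between the oculomotor nucleus and the spinal cord at 6 months for 5 of the complement genes chosen (blue) and 9 others (grey), with 95% intervals of the fit (3 arrays per group); blue squares are a description, and filled grey circles have a limma adjusted p under 0.05. Serping1 lies farthest to the left at -2.14, and Susd4 is the filled circle to the right of 0 at 0.31.

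The tissue difference stayed in the same direction at the older ages. At 18 months it was -2.71 for Serping1, -2.04 for C1s, -1.75 for C3, -1.31 for C1qb and -1.26 for C1qa on the log2 scale, and at 30 months it was -2.11, -1.99, -1.16, -0.92 and -0.58 for the same genes. No oculomotor array reached a cord array for any of the 5 genes at either age, where 22.1% and 17.1% of all probe sets were lower without overlap at 18 and 30 months. C3 at 30 months in the oculomotor nucleus, 1158 ± 52.4, remained under the cord level at 6 months, 1521 ± 65.5. C1qa at 30 months in the oculomotor nucleus, 1276 to 1647, overlapped with the cord at 6 months, 1431 to 1686, and C1qb at 30 months, 365 to 629, overlapped likewise with 591 to 709. Ordered by mean, each of the 5 genes was highest in the cord at 18 months, followed by the cord at 30 months and at 6 months. The oculomotor groups followed from 30 to 6 months, except that C1s was slightly lower at 30 months, 131 ± 33.5, than at 18 months, 137 ± 19.9.

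How far the age change in the oculomotor nucleus departed from that in the cord is built from the age differences, so it is a description for these genes too. From 6 to 18 months the change in the oculomotor nucleus minus that in the cord was -0.57 for Serping1 (95% interval -1.25 to 0.12), -0.52 for C1qb (-1.17 to 0.13), -0.47 for C1qa (-0.94 to 0.00), -0.37 for C1s (-1.03 to 0.29) and -0.27 for C3 (-0.66 to 0.12). From 6 to 30 months it was 0.32 for C3 (-0.07 to 0.71) and between -0.32 and 0.21 for the other 4. To 2 decimals the interval of C1qa at 18 months ended at 0.00, and the other intervals given here lay across 0. An interval across 0 does not show that the tissues changed alike. Among all 9482 probe sets limma called 0 (0%) in either interaction, with 481 and 519 at an unadjusted p under 0.05. Of the complement genes chosen, 1 was among the 481 at 18 months and 0 among the 519 at 30 months. With no filter, 0 of them had an unadjusted p under 0.05 in the 18-month interaction.

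Deviations from the group means were used to see which genes moved together from array to array once age and tissue were removed. C1qa and C1qb went together (Pearson's r = 0.87, Spearman's rho = 0.80 over 18 arrays, r = 0.78 without the 2 arrays farthest from the median of C1qa). C1s and Serping1 also went together (r = 0.81, rho = 0.73, and 0.81 without 2 arrays). Across these pairs r was 0.19 between C1qb and C1s, 0.27 between C1qb and Serping1, 0.53 between C1qa and C1s and 0.55 between C1qa and Serping1, while C3 had r = 0.81 with C1qa, 0.73 with C1qb, 0.65 with Serping1 and 0.48 with C1s. The values are descriptions with no p: genes on an array share its RNA pool, scaling and the joint deviation of the 4 arrays named above. C1qc, the third chain of C1q, had r = 0.81 with C1qa and 0.74 with C1qb. It also had 0.70 with Serping1 and 0.58 with C1s, so the 2 pairs were not separate groups. C1r is the partner protease of C1s, and its gene neighbours C1s on chromosome 4. It had r = 0.47 with C1s, 0.62 with Serping1 and 0.68 with C1qa, at signals near the floor in the oculomotor nucleus.

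**Figure D5:**
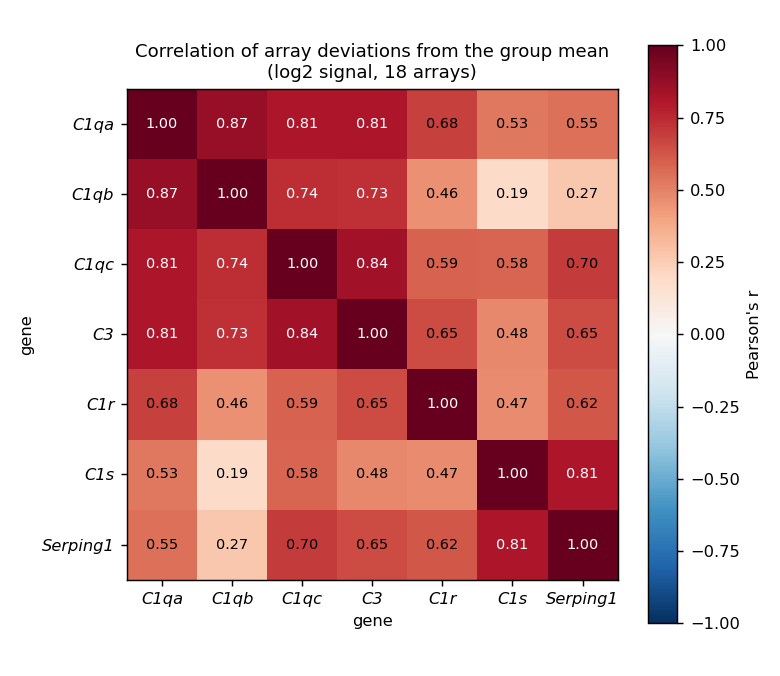
Pearson's r between deviations of log2 signal from the group means over the 18 arrays, for the 5 complement genes that passed the filter and for C1qc and C1r; red is positive. C1qa, C1qb, C1qc and C3 have values of 0.73 to 0.87 with one another, C1s and Serping1 0.81, C1qc with Serping1 0.70, and C1qb with C1s 0.19.

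Genes outside the pathway with the most similar pattern were taken by the highest r over the 18 arrays after the mean of each tissue was subtracted, so that shared age differences count. For C3 they were Fcer1g (0.97), the common chain of activating Fc receptors, Mpeg1 (0.96), a pore-forming protein of macrophages, and Cd53 (0.96), a leukocyte tetraspanin. For C1qa they were Tmem176b (0.94), the class II gene RT1-Db1 (0.94) and Mpeg1 (0.93), and for C1qb Tmem176b (0.88), Rnaset2 (0.87) and the cathepsin gene Ctsh (0.86). C1s and Serping1 both had Tgfbr1, a receptor for TGF-beta, at 0.90 and 0.84, and Grn, progranulin, at 0.86 and 0.89. Il33, an alarmin cytokine, stood with C1s at 0.86, and Arpc1b, an actin-nucleating subunit, with Serping1 at 0.89.

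The other genes of the pathway were taken from a list of 42 by role, of which 25 had a probe set of their own and 9 passed the filter. Probe sets that the platform assigns to several genes, such as those shared by the C4 genes and by Cfb and C2, were not used. None of the 9 was called in the oculomotor nucleus or the cord at 18 or 30 against 6 months by limma, with 1 at each older age in oculomotor tissue and 4 and 2 in the cord at an unadjusted p under 0.05. Their median log2 differences were -0.02, 0.01, 0.07 and 0.03 in these 4 comparisons.

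Among the starters of the cascade, C1qc in the oculomotor nucleus had 391, 448 and 414 at the youngest age, 474, 514 and 561 by 18 months, then 566, 415 and 590 by 30 months. In the cord it had 621, 741 and 658 at 6 months, 1050, 1321 and 656 by 18 months, then 616, 630 and 820 by 30 months. The cord ages overlapped, with differences from 6 months of 0.53 ± 0.19 at 18 months and 0.02 ± 0.19 at 30 months, where C1qa and C1qb each differed by 0.51, and the gap between the chains was not tested. C1r was looked at after its values were seen and lay under the filter. In the cord it had 130, 186 and 167 at 6 months, 307, 324 and 196 by 18 months, then 210, 137 and 285 by 30 months. Its 18-month arrays lay above all 6-month arrays, narrowly at 196 against 186. The same held for 6.95% of the probe sets that passed the filter. Masp1, a protease of the lectin pathway, differed by -0.14 ± 0.14 at most on its brighter probe set and by up to -0.32 ± 0.17 on its other one that passed, at 18 months in the oculomotor nucleus.

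Properdin (Cfp), which stabilises the C3-cleaving enzyme of the alternative pathway, differed by 0.16 ± 0.14 or less. Neither terminal gene with a probe set, C8b or C9, passed the filter, with signals of 69.6 to 191 on all arrays. Itgam, the alpha chain of the receptor CR3 for cleaved C3, had 275, 341 and 266 in the cord at 18 months and 276, 292 and 293 at 30 months, against 234, 193 and 220 at 6 months. Both older groups lay above 6 months without overlap, by 0.44 ± 0.16 and 0.42 ± 0.16 (limma adjusted p = 0.3 and 0.35), as did 6.95% and 6.68% of all probe sets.

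Of the regulators, Susd4, a membrane protein with complement control domains, was lower in the cord at 18 months (680, 728 and 713) and at 30 months (806, 739 and 694) than at 6 months (880, 881 and 835). The differences were -0.29 ± 0.08 and -0.22 ± 0.08 with no overlap, and did not pass the test (limma adjusted p = 0.141 and 0.351); 6.7% and 6.38% of all probe sets were lower with no overlap. Cd59b, which blocks the membrane attack complex, was lower in the oculomotor nucleus at 18 months, 1585 to 1849 against 1963 to 2176 at 6 months, and higher in the cord at 18 months, 2469 to 3014 against 2211 to 2409, and neither passed the test (limma adjusted p = 1 and 0.481). Without overlap, 7.26% of all probe sets were lower in the oculomotor nucleus and 6.95% were higher in the cord at 18 months. The change of Cd59b differed between the tissues by -0.46 ± 0.14 (interaction, limma adjusted p = 0.831). Vtn, vitronectin, which inhibits the terminal complex, differed by -0.39 ± 0.18 at 30 months in the oculomotor nucleus (limma adjusted p = 0.585), and Clu, clusterin, differed by 0.14 ± 0.09 or less.

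Between the tissues at 6 months, limma called 4 of these 9 genes, beside 26.1% of all probe sets, with a list median of -0.17. Itgam passed the filter through its cord levels. With no filter 6 of the 25 genes with a probe set were called, 5 lower and 1 higher, with a median of -0.17. That fit called 8.83% of all probe sets lower. The 5 lower included C1r (-1 ± 0.27) and the receptor gene C5ar1 (-0.65 ± 0.16), which did not pass the filter. In the fit with the filter, C1qc (-0.69 ± 0.19, limma adjusted p = 0.0128), Vtn (-0.91 ± 0.18, 0.000797) and Itgam (-0.48 ± 0.16, 0.0335) were lower in the oculomotor nucleus. Susd4 was higher there, with 1058, 1096 and 1072 against 880, 881 and 835 in the cord (0.31 ± 0.08, limma adjusted p = 0.00941). Without the 3 cord arrays rich in muscle transcripts limma called 0 of the 9, with 4 at an unadjusted p under 0.05.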

How the data were processed

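Per the labels, 18 samples were measured, 9 of the oculomotor nucleus and 9 of the spinal cord, 3 at each age. The series text speaks of 4 replicates per group, and the labels, which give 3, were followed. The table deposited gives 1 intensity for each probe set on each array, made by the authors with Affymetrix Microarray Suite 5.0, per the series text. Its scale and centring are read from the values: linear, with a 2% trimmed mean of 500.083 to 500.101 on every array and medians that differ. Detection calls were not used here.

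Values were scaled to a common trimmed mean, raised to a floor of 66.4 and taken to log2; 57 controls were removed, and probe sets with a mean log2 over 7.46, the pooled 40th percentile, were kept (9482 of 15923). A single model with 6 group means over the 18 arrays was fitted in limma 3.58.1 (R 4.3.3; eBayes with a mean-variance trend, 12 residual degrees of freedom), 2-sided, with Benjamini-Hochberg adjustment over all probe sets kept. Group levels are means of scaled signals with their SD. Probe sets naming several genes were given no name. The script was tested on simulated data.

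The complement genes, marker lists and tests were chosen with earlier results of these data known, so the planned tests of the 6 genes between tissues are given without p-values. Named genes are all probe sets of the 6 genes and other complement genes that were called. Up to 4 per role with the smallest p in a comparison with 6 months are also named. C1r, C5ar1 and Fcna were added after their values were seen. The alternatives were other normalizations, floors, filters and fits, blocks, the study's rule, and leaving out arrays. Same-numbered arrays of different groups had correlations of their deviations between -0.26 and 0.5, so the replicate numbers were not taken as pairs.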

Additional observations from a re-analysis of the deposited data

Results flagged for a closer look

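Cd59b stood out because every oculomotor array at 18 months lay below those of 6 months while every cord array at 18 months lay above those of 6 months. Without overlap, 7.26% of all probe sets were lower in the oculomotor nucleus and 6.95% were higher in the cord at 18 months. The share with both shifts was not counted. For Cd59b the change in the oculomotor nucleus minus that in the cord was -0.46 on the log2 scale. The test of the difference, limma's interaction, did not pass (adjusted p = 0.831 over 9482 probe sets, unadjusted p = 0.00482), and at 30 months the corresponding difference was -0.20 (adjusted p = 0.92).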

How the results depend on the processing

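Each of the 5 genes that passed the filter kept the direction of its differences from 6 months, and of its tissue difference at 6 months, under every alternative run. Quantile normalization, median centring, no floor and a fit without the mean-variance trend left the calls of these genes as they were. With no filter, limma called 8 probe sets at 30 against 6 months in the oculomotor nucleus (20 in the fit reported) and 2 in the 30-month interaction (0), 1 of the complement genes chosen in the cord at 18 months (2) and 0 at 30 months (1), and 2 of the other complement genes in the cord at 18 months (0), Susd4 and Fcna, a ficolin of the lectin pathway at signals of 97.5 to 119 there and 52.6 to 65.5 at 6 months. The 6-month cord signals of Fcna all lay under the floor of 66.4, so the fit gave these arrays the same value. With a pseudocount of 50 instead of the floor, the oculomotor count at 30 months was 10, and the interaction of Serping1 at 30 months was -0.04 (0.04 reported). With the replicate block the oculomotor count at 30 months was 9, and the block changed no call of the complement genes.

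With the 4 arrays that deviate together as a block, the cord counts were 127 at 18 months (69) and 72 at 30 months (21), with 4 complement genes called at 18 months. Without the 3 cord arrays rich in muscle transcripts the counts were 12 in the oculomotor nucleus at 30 months, 3 and 4 in the cord at 18 and 30 months and 1536 between the tissues (2478). 0 of the complement genes were then called in the cord at 18 and 30 months, and 0 of the other complement genes between the tissues (4). C1qb between the tissues was -0.64, C1s in the cord at 18 months 0.50, and Serping1 in the cord 0.29 at 18 and 0.05 at 30 months. Without the 2 oculomotor arrays rich in choroid plexus transcripts the counts were 7 in the oculomotor nucleus at 30 months and 34 in the cord at 18 months, with 1 complement gene called there, 2 other complement genes between the tissues, and the 30-month interaction of Serping1 at -0.10. Fitted alone, the oculomotor nucleus had 2 complement genes called at 30 months, C3 and C1qa, and the cord had 15 probe sets at 18 months with 1 of the genes and 0 probe sets and 0 genes at 30 months (815 and 4 at an unadjusted p under 0.05). By the study's rule 5 probe sets differed in the oculomotor nucleus at 18 months (0), 34 in the cord at 30 months, and 4 of the complement genes in the cord at 18 months. The cause was not tested, beyond the fewer arrays that such fits use.

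Leaving out each array in turn gave counts of 4 to 69 in the oculomotor nucleus at 30 months, 15 to 100 and 0 to 43 in the cord at 18 and 30 months, and 0 to 5 and 0 to 1 in the interactions at 18 and 30 months. Complement genes called numbered 1 to 2 in the oculomotor nucleus at 30 months and 1 to 4 and 0 to 1 in the cord at 18 and 30 months, and other complement genes 0 to 1 in the cord at 18 months. C1qa in the cord ranged from 0.29 to 0.63 at 30 against 6 months and from -0.49 to -0.13 at 30 against 18 months. The 30-month interaction ranged from -0.30 to 0.13 for C1qb and from -0.15 to 0.27 for Serping1. Dim signals limit what can be seen of Cd55 and, in the oculomotor nucleus, of C1s and Serping1.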
